A study of Mus musculus with 52 samples.

Results

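The comparison concerns the bone marrow of non-transgenic mice at 12 weeks of age against 6 weeks, the interval from weaned juvenile to young adult. The arrays were those titled NeuT- 12 weeks, 9 in number, and NeuT- 6 weeks, also 9, so 18 of the 52 arrays of the series were used. All of these mice were BALB/c females, siblings of MMTV-NeuT transgenic (NeuT+) mice that did not carry the transgene, and none was treated. MMTV-NeuT mice carry the activated rat Neu oncogene under the mouse mammary tumour virus promoter, which acts chiefly in mammary epithelium. NeuT+ mice of the same ages, 9 and 9, are used below only for comparison, as are 5 NeuT- mice of 24 weeks. RNA of whole marrow, 1 array per mouse, was hybridised to Illumina mouseWG-6 v2.0 bead arrays, so all marrow cell types contribute to every value.

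Marrow in this period of life is still being remodelled. The long bones are elongating, the stromal and vascular niche that holds blood stem cells matures, and the first long-lived plasma cells, which arise in lymphoid organs after antigen contact, settle in that niche. Plasma cells depend there on the receptor BCMA, encoded by Tnfrsf17, and on its ligand APRIL, encoded by Tnfsf13. Immediate early genes, such as Egr2, are transcribed within minutes of a stimulus, and their RNA in whole tissue also answers to how the tissue was handled.

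Animal numbers in the sample titles fall into series by their leading 2 digits, and no label explains these series. The 6-week group held 3 mice each of series 12, 14 and 17, and the 12-week group held 2 of series 11, 3 of series 12 and 4 of series 15. Series 12 was therefore the only one with both ages. Of the 5 NeuT- mice of 24 weeks, 4 were of series 13, which held no mouse of 6 or 12 weeks, and 1 was of series 12. Between 15210 and 16974 probes were detected per array at a detection p under 0.01, the median raw intensity ran from 107.5 to 155.5, and pairwise correlations of the 18 arrays lay between 0.963 and 0.994. Peg3, which marks the transgenic line in this series, had raw intensities of 119.7 to 199.6 in these 18 mice against 2090.2 to 5885.8 in the 18 NeuT+ mice, so no genotype label was contradicted. Whole profiles did not separate the ages. Each mouse was set against the NeuT- means of 6, 12 and 24 weeks, itself left out. Their own age group was the best match for 7 of 9 mice labelled 12 weeks and 4 of 9 labelled 6 weeks. Replicate 8 of 6 weeks correlated best with the 24-week mean (0.987), and more with 6 weeks (0.982) than with 12 weeks (0.981). The submitters' tumor grade label read mild/moderate dys for 5 of the 9 younger and 1 of the 9 older mice, although none carried the transgene. It read normal for 1 younger and 8 older mice. The remaining 3 younger mice, labelled "no", were those of series 17, and the NeuT+ mice of series 17 alone shared that label. Age and this label largely move together, and the label "no" cannot be told apart from series 17.

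The 6-week mice of series 17 stood apart from the other 6 of that age in the level of some gene lists. Of 30 lists of cell-type and pathway genes, the mean log2 level of the list was lower in all 3 of these mice than in every other 6-week mouse for 6 lists, higher for 2 and overlapping for 22. The 6 were immediate early, inflammatory, glucocorticoid-induced, resident macrophage, eosinophil, basophil and mast cell, and megakaryocyte genes. Interferon response and mature neutrophil genes were the 2 that stood higher. The same count was not made for series 12 or series 14. The immediate early list had a mean level of 9.11 in series 17 against 9.97 in series 12 and 10.23 in series 14, and the resident macrophage list reached at most 9.22 against at least 9.41 in the others. For this reason the 20 genes and the medians of the lists are given below also without series 17.

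Few genes differed between the ages. Of 11309 genes tested, 20 passed an adjusted p of 0.05 (limma, Benjamini-Hochberg over all genes), which is 0.177% of them. Levels of 13 genes were higher at 12 weeks (0.115%) and levels of 7 were lower (0.0619%), and 885 genes had an unadjusted p under 0.05. The median log2 difference over all genes was -0.02. Among those that rose were the antibody gene Ighg1, the plasma-cell gene Tnfrsf17, the immediate early factors Egr2 and Klf4, and the chemokine gene Ccl2. Tnfrsf17 was not detected in any mouse of either age, and Klf4 did not pass without series 17. Bgn, Col4a1, Col6a1 and Tnc, which encode matrix proteins, were among those that fell; Col4a1 and Tnc belong to none of the 30 lists. Values of the ages did not overlap for 9 genes of the 11309 (0.0796%), and all 9 were among the 20. For all 20 genes, each of the 3 series means at 12 weeks lay on the same side of each of the 3 series means at 6 weeks. The 20 were picked on these same values, so this describes them and is no separate support. Its share over all genes was not counted.

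**Figure D1:**
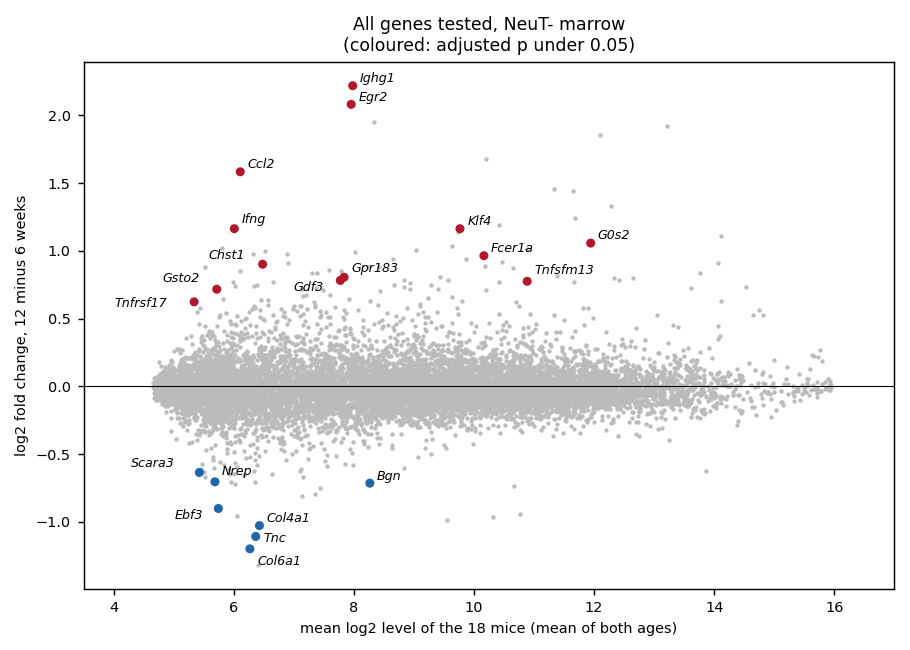
Each point is 1 of 11309 genes, with the mean log2 level of both ages on the horizontal axis and the log2 fold change, 12 minus 6 weeks, on the vertical axis. The 20 coloured genes passed the adjusted p, 13 higher in red and 7 lower in blue, and several grey genes with folds as large did not pass.

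Ighg1, the constant region of the immunoglobulin G1 heavy chain, had the largest rise. Its log2 level ran from 5.84 to 7.71 in the 6-week mice, with a median of 6.93, and from 7.91 to 10.14 in the 12-week mice, with a median of 9.05. All 9 older mice lay above all 9 younger ones. The difference was 2.22 ± 0.28 on the log2 scale (SE, n = 9 and 9, adjusted p = 0.000865), a 4.65-fold rise. Without series 17 it was 2.52 ± 0.29 (adjusted p = 0.00128), and within series 12 alone, 3 mice of each age, it was 2.44 (adjusted p = 0.0239). In the 5 mice of 24 weeks the log2 level was 11.53 ± 0.39 (SD), above every mouse of 12 weeks. Constant regions of the IgG subclasses are near-identical in parts, so the probe may also read other subclasses.

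Tnfrsf17, the plasma-cell receptor BCMA, also rose with no overlap between the ages, but from and to levels below detection. Its log2 level ran from 4.87 to 5.18 at 6 weeks, with a median of 5.05, and from 5.36 to 6.15 at 12 weeks, with a median of 5.63. The test passed (adjusted p = 0.00215, and 0.00647 without series 17), yet 0 of 18 arrays had a detected signal, so no fold is given. At 24 weeks 5 of 5 mice were detected, with log2 levels of 6.70 to 7.81. The probe named Tnfsfm13 reads a readthrough transcript of the neighbouring genes Tnfsf12 and Tnfsf13, and cannot be told from Tnfsf13 itself. Its level was 9.83 to 10.81 at 6 weeks (median 10.56) and 11.08 to 11.47 at 12 weeks (median 11.25), with no overlap. That is a rise of 0.78 ± 0.12 (SE, adjusted p = 0.00286), and of 0.85 ± 0.13 without series 17 (adjusted p = 0.00403). A second probe of Tnfsfm13 was detected at neither age. APRIL is made by myeloid cells of the marrow among others, and which cells carried this signal was not tested.

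The other genes of the plasma-cell list did not pass. Of its 12 measured members, 2 rose, Ighg1 and Tnfrsf17, and none fell, and the list's median log2 difference was 0.08, or 0.13 without series 17. Jchain, which joins polymeric antibodies, was detected on 0 and 1 of 9 arrays, so no difference is given. Sdc1, a surface marker of plasma cells, was detected on 1 array at each age, so its difference is not given either. Mzb1, an antibody-folding factor, stood at -0.19. Pou2af1, detected on 9 and 9 arrays, stood at -0.32, or -0.38 without series 17. Xbp1 and Irf4, transcription factors of antibody secretion, stood at 0.09 and 0.04. In NeuT+ mice of the same ages 3 of the 12 members passed as higher and 2, Mzb1 and Pou2af1, as lower. Without series 17 these counts were 2 and 1. In whole marrow, more cells of a type and more RNA per cell cannot be told apart, here or in any result below.

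**Figure D2:**
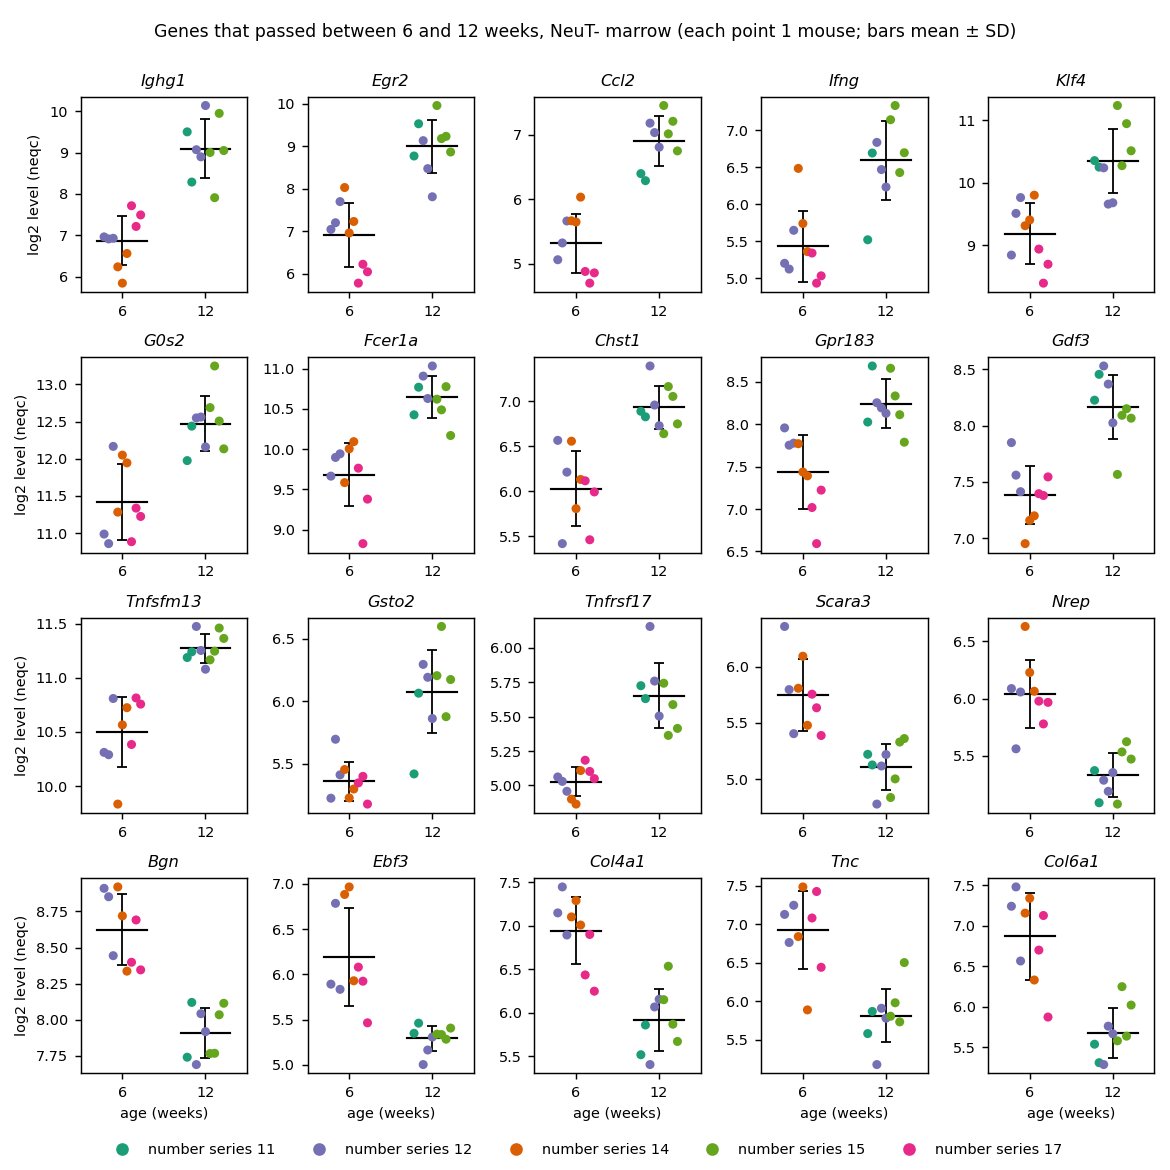
Log2 levels (neqc) of the 20 genes in each of the 18 NeuT- mice, 1 panel per gene, with age in weeks on the horizontal axis, points coloured by animal number series, and bars showing the mean and SD. Ages do not overlap for 9 genes, and the 3 mice of series 17 hold the 3 lowest 6-week values of Egr2, Ccl2 and Gpr183.

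Egr2, a zinc finger transcription factor of the immediate early class, had a log2 level of 5.78 to 8.03 at 6 weeks (median 7.05) and of 7.81 to 9.96 at 12 weeks (median 9.13). Only 1 pair of mice overlapped: 8 of 9 older mice lay above every younger mouse. The rise was 2.08 ± 0.30 (SE, adjusted p = 0.00215), or 4.23-fold. By series, the 6-week means were 7.32, 7.41 and 6.02 for series 12, 14 and 17. Without series 17 the rise was 1.63 ± 0.26 (adjusted p = 0.00647). Within series 12 it was 1.16 (adjusted p = 0.218).

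Since Egr2 had the largest rise of a transcription factor, 1 of its 5 promoter windows in the RefSeq table is shown (GRCm38.p6, chr10:67537680-67537979, plus strand, from 250 bases before to 50 after an annotated start). Capitals mark a CArG box, the sequence that serum response factor binds at immediate early genes, with its first base at -133 from the start.
Egr2: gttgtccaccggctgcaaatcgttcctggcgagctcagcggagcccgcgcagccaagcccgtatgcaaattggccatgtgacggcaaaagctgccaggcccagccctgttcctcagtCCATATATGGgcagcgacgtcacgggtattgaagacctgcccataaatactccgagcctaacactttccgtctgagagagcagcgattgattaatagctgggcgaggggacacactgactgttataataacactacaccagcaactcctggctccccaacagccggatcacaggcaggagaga
Of the 20 genes, 15 had a window in the table, and 4 of them (Egr2, Ebf3, Gpr183 and Tnfrsf17) had a CArG box in at least 1 window. Those 15 genes had 21 windows, of which 7 held the box, 4 of them windows of Egr2, of which 3 overlap each other. The box, searched on both strands, stood in 1.63% of all 32851 windows, and in at least 1 window of 1.81% of all 27025 genes. The match is a description of the letters and no test of binding.

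Klf4, a zinc finger factor of monocyte differentiation, had a log2 level of 8.39 to 9.80 at 6 weeks (median 9.31) and of 9.66 to 11.23 at 12 weeks (median 10.27), so the ages overlapped. It rose by 1.16 ± 0.22 on the log2 scale (SE, adjusted p = 0.0217), and its other 2 detected probes gave 1.23 and 1.15. The call did not hold without series 17 (0.91 ± 0.22, adjusted p = 0.171), and within series 12 the difference was 0.49 (adjusted p = 0.426). It was also lost when any 1 of 3 mice was left out alone (adjusted p up to 0.0556).

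Most of the immediate early list was higher at 12 weeks without passing. Of 25 measured members 2 rose, Egr2 and Klf4, none fell, and 24 had a positive difference. The median was 0.67, beside -0.02 for all genes, and 0.42 without series 17, where 1 member passed. The largest of those that did not pass were Atf3 (1.95, adjusted p = 0.13), Egr1 (1.92, adjusted p = 0.12) and Fosb (1.86, adjusted p = 0.12), and each was near 1 without series 17, at 1.13, 1.00 and 0.97. Klf2, which restrains inflammatory activation, stood at 1.11 (adjusted p = 0.0549). The mean log2 level of the list ran from 9.03 to 10.31 at 6 weeks and from 10.32 to 10.96 at 12 weeks. This was the only 1 of the 30 lists whose 18 mice separated by age, by a margin of 0.0059 at the closest pair.

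Ccl2, the chemokine that draws Ccr2-bearing monocytes, was not detected in any 6-week mouse and was detected in 8 of 9 at 12 weeks. Its log2 level ran from 4.70 to 6.03 (median 5.32) and from 6.29 to 7.45 (median 7.01), without overlap. It was at least 1.59-fold higher at 12 weeks (adjusted p = 0.000469). The call held without series 17 (adjusted p = 0.0020) and within series 12 alone (adjusted p = 0.0148). It was 1 of 23 inflammatory and NF-kB genes that rose, and none fell. The list's median was 0.21, and 0.20 without series 17. Ccl3 and Ccl4, chemokines of activated macrophages and T cells, stood at 1.44 and 1.46 without passing (adjusted p = 0.12 and 0.22), and at 0.76 and 0.68 without series 17.

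Other genes of immune cells rose. Fcer1a, the ligand-binding chain of the high-affinity IgE receptor on basophils and mast cells, had a log2 level of 8.82 to 10.09 at 6 weeks (median 9.76) and of 10.17 to 11.03 at 12 weeks (median 10.63). The ages did not overlap, and the rise of 0.96 ± 0.15 (SE, adjusted p = 0.00417) was matched by its second probe at 0.95. Without series 17 it was 0.78 ± 0.12 (adjusted p = 0.00647), and within series 12 it was 1.02 (adjusted p = 0.0436). The remaining 10 measured genes of eosinophils, basophils and mast cells did not pass, and the median of the list was 0.27, or 0.12 without series 17. Of the basophil and mast cell genes among them, Mcpt8, Cpa3 and Prss34 stood at 0.46, 0.46 and 0.44, and at 0.28, 0.24 and 0.26 without series 17. Epx and Prg2 of eosinophil granules stood at -0.08 and 0.09 with all mice, at -0.73 and -0.37 without series 17, and at -1.79 and -1.12 within series 12 alone.

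Ifng, the interferon of T and NK cells, had a log2 level of 4.93 to 6.48 at 6 weeks (median 5.34), with 1 of 9 arrays detected, and of 5.52 to 7.33 at 12 weeks (median 6.69), with 8 detected. It rose by 1.16 ± 0.22 on the log2 scale (adjusted p = 0.0217), and its second probe gave 0.60. Gpr183, an oxysterol receptor that positions B cells and dendritic cells, rose by 0.81 ± 0.16 (adjusted p = 0.0458). G0s2, an inhibitor of the lipase that breaks down triglycerides, rose by 1.06 ± 0.19 (adjusted p = 0.0198). None of these 3 passed without series 17 (adjusted p = 0.176, 0.169 and 0.169), when their differences were 1.00, 0.56 and 0.92. Leaving out a single mouse also ended the call of Ifng for 6 of the 18 mice, that of Gpr183 for 12 and that of G0s2 for 2.

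The last 3 genes to rise have no shared role. Gdf3, a ligand of the transforming growth factor beta family, had a log2 level of 6.95 to 7.85 at 6 weeks (median 7.40) and of 7.57 to 8.53 at 12 weeks (median 8.15). Its rise of 0.78 ± 0.12 (adjusted p = 0.00478) held without series 17 (0.81, adjusted p = 0.0290). Chst1, a sulfotransferase of keratan sulfate chains, rose by 0.90 ± 0.15 (adjusted p = 0.00616), from 3 to 9 detected arrays and with no overlap, and stood at 0.82 without series 17 (adjusted p = 0.0555). Gsto2, a glutathione transferase, passed (adjusted p = 0.00616) on 0 and 3 detected arrays, so no fold is given, and did not pass without series 17 (adjusted p = 0.0691). A second probe of Gsto2 was detected at neither age.

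Levels of 7 genes fell. Bgn, the proteoglycan biglycan, was detected in all 18 mice. Its log2 level was 8.34 to 8.92 at 6 weeks (median 8.69) and 7.69 to 8.12 at 12 weeks (median 7.92), without overlap. It fell by 0.71 on the log2 scale (SE 0.10, adjusted p = 0.00215), and the difference without series 17 was -0.79 ± 0.11 (adjusted p = 0.00256).

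Col4a1, a collagen chain of basement membranes, had a log2 level of 6.25 to 7.45 at 6 weeks (median 7.01), detected in 9 of 9 mice, and of 5.41 to 6.54 at 12 weeks (median 5.87), detected in 2. Its difference was -1.03 ± 0.16 (SE, adjusted p = 0.00478), and -1.23 ± 0.15 without series 17 (adjusted p = 0.00128). Tnc, the matrix glycoprotein tenascin C, ran from 5.89 to 7.48 (median 7.08) and from 5.18 to 6.50 (median 5.80), with 8 and 1 mice detected. Its difference was -1.11 ± 0.19 (adjusted p = 0.00913), with a second detected probe at -1.04, and -1.08 without series 17 (adjusted p = 0.0485). Ages overlapped for both genes.

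Col6a1, a chain of the microfibrillar collagen VI, was detected in 7 of 9 mice at 6 weeks and in 0 of 9 at 12 weeks. Its log2 level ran from 5.87 to 7.48 (median 7.13) and from 5.28 to 6.25 (median 5.64). It was at least 1.57-fold lower at 12 weeks (adjusted p = 0.00478), and still passed without series 17 (adjusted p = 0.0020). The gene's promoter window is shown because it is the matrix gene with the largest fitted fall (RefSeq, GRCm38.p6, chr10:76725995-76726294, minus strand). Capitals mark the only match, in the 15 genes with a window, of the AP-1 motif TGANTCA, searched on both strands and present in 7.81% of all windows. Counted by gene, 8.97% of all genes with a window had the motif.
Col6a1: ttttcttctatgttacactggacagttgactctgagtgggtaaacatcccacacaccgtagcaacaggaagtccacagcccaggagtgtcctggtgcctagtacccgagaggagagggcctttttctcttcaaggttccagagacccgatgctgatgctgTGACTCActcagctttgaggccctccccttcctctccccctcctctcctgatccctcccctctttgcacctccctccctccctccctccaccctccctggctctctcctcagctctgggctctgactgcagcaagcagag
TATAAA, searched likewise, stood in windows of 4 of the 15 genes (Fcer1a, Ifng, Tnc and Tnfrsf17), in 5 of the 21 windows of the 15, and in 13.6% of all windows. Counted by gene, 15.7% of all genes with a window had it.

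Ebf3, a transcription factor of the Cxcl12-abundant reticular cells that form the stem cell niche, was detected in 3 mice at 6 weeks and in 0 at 12 weeks. Its levels of 5.46 to 6.96 and of 5.00 to 5.46 nearly met but did not overlap (adjusted p = 0.0268, and 0.00647 without series 17), and no fold is given for a gene this dim. Scara3, a scavenger receptor-like protein, and Nrep, a small intracellular protein linked to transforming growth factor beta signalling, passed likewise (adjusted p = 0.0280 and 0.00546). Each was detected in 2 mice at 6 weeks and in 0 at 12 weeks, and both passed without series 17 (adjusted p = 0.0465 and 0.0147). Leaving out a single mouse ended the call of Ebf3 for 8 of the 18 mice and that of Scara3 for 7, and with the number series as a random block neither passed (adjusted p = 0.0606 and 0.0791). A second probe of Ebf3 was detected at neither age.

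The wider stroma and matrix list held 18 measured genes, of which 3 fell (Col6a1, Ebf3 and Bgn), none rose and 15 had a negative difference. Of the 18, 6 were detected on all 18 arrays and 7 on none. Its median was -0.30, and -0.25 without series 17. Over the alternatives it ran from -0.68, for the 8 members detected on at least 5 arrays, to -0.14 on log2 quantile values with no background correction, and it was -0.15 on the deposited log2 values. The mean log2 level of the list was 6.78 to 7.23 at 6 weeks and 6.51 to 6.78 at 12 weeks. The closest pair of mice met at 6.78, and without series 17 the younger mice began at 6.89. Series means were 7.07, 7.11 and 7.02 at 6 weeks and 6.68, 6.60 and 6.73 at 12 weeks, so series 17 did not stand apart here.

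Leaving out series 17 brought 5 further genes past the threshold, 3 of them lower at 12 weeks. Cxcl12, the chemokine that retains stem cells and B-cell precursors in marrow, had a mean log2 level of 11.24 ± 0.74 (SD) at 6 weeks and of 10.30 ± 0.31 at 12 weeks. Its difference was -0.94 with all mice (adjusted p = 0.164) and -1.27 ± 0.20 without series 17 (adjusted p = 0.00646). Igfbp5, a binding protein of insulin-like growth factors made by the same stromal cells, moved from 10.05 ± 0.66 to 9.06 ± 0.37, which is -0.99 with all mice (adjusted p = 0.113) and -1.34 ± 0.18 without series 17 (adjusted p = 0.0020). With these the stromal list had 5 members lower and none higher. The others were Limch1, detected on 1 and 0 arrays, and, higher at 12 weeks, the kinase gene Stk32a (0.74 ± 0.10, adjusted p = 0.00256) and Cd6, a receptor of T cells (0.63 ± 0.11, adjusted p = 0.0262).

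Genes of marrow vessels leaned the same way without passing. None of 14 endothelial genes passed in either direction, 13 had a negative difference, and the median was -0.24, or -0.32 without series 17. Robo4 and Emcn, surface proteins of sinusoidal and other endothelium, stood at -0.79 ± 0.17 and -0.65 ± 0.14 (adjusted p = 0.0697 and 0.0700), and Cldn5, a tight-junction protein, at -0.95 (adjusted p = 0.0811). Of 6 adipocyte genes none passed and the median was -0.20, or -0.29 without series 17. Adipoq, the fat hormone adiponectin, stood at -0.81 ± 0.26 (adjusted p = 0.306). Lep, the hormone leptin, stood at -0.27 but was detected in only 2 mice at 6 weeks and 1 at 12 weeks.

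Markers of neighbouring tissues were set beside the matrix genes because bone, cartilage or muscle taken with the marrow would carry collagen RNA. No gene of these lists passed. The median was -0.11 over 11 osteoblast and osteocyte genes, 0.07 without series 17, and -0.15 over 4 cartilage and -0.09 over 9 muscle genes, which became -0.07 and -0.06 without series 17. Many of these genes carried no signal to compare: 2 of the 11 bone, 2 of the 4 cartilage and 5 of the 9 muscle genes were detected on none of the 18 arrays. Among those that were detected, Alpl of bone stood at -0.26, the cartilage collagen Col2a1, detected in 8 and 6 mice, at -0.42, and Mylpf of muscle fibres at 0.20. Phex and Acta1 were not detected at either age, and Col11a2 was detected in 1 mouse. Summed raw intensities of the osteoblast list ran from 3161.7 to 14868.4 at 6 weeks and from 4258.4 to 15128.4 at 12 weeks, and those of the muscle list from 1718.8 to 2874.2 and from 1772.5 to 3040.3. Col1a1 and Bglap, the main collagen and a hormone of bone, stood at -0.27 and -0.11. Osteoclast genes had a median of -0.09, or -0.04 without series 17, with none of 8 passing, 3 of 8 detected on no array and Nfatc1 at -0.10.

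**Figure D3:**
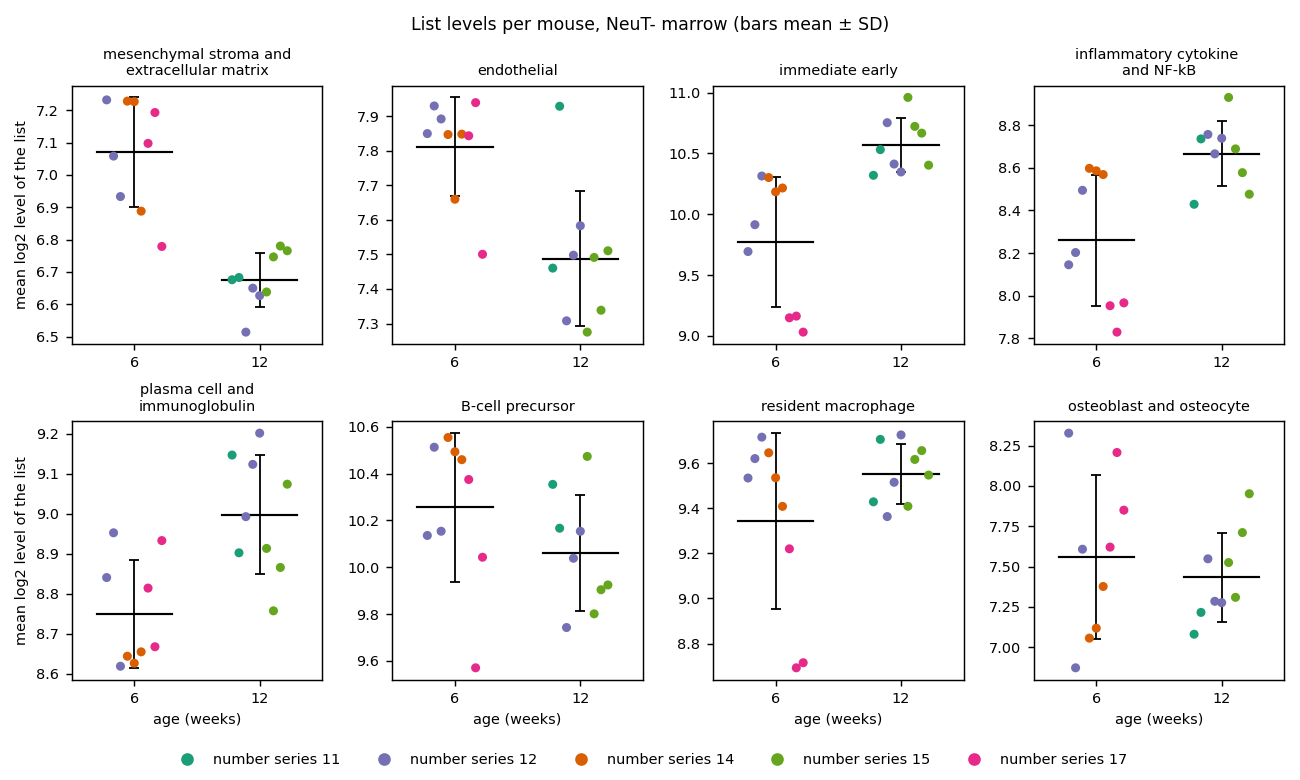
Mean log2 level of 8 gene lists in each NeuT- mouse by age in weeks, coloured by animal number series, with the mean and SD of each age. Stromal levels fall from a 6-week range of 6.78 to 7.23 to a 12-week range of 6.51 to 6.78, and the 3 mice of series 17 are the lowest of the 6-week group for immediate early, inflammatory and resident macrophage genes.

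Blood-forming lineages showed no passing gene outside those named. Of 15 B-cell precursor genes, among them the surrogate light chain genes and the recombinase Rag1, none passed, 13 were negative and the median was -0.20, or -0.29 without series 17. Foxo1, which drives Rag expression, stood at -0.32 ± 0.10 (adjusted p = 0.286) and Cd79b, a chain of the B-cell receptor, at -0.20 (adjusted p = 0.596). None of 16 mature B-cell genes passed (median -0.15, or -0.11 without series 17), with Blk, a B-cell kinase, at -0.34 and Cd83, an activation marker, at 0.74. All 9 MHC class II genes were positive without passing, with a median of 0.18, or 0.16 without series 17, and H2-Eb1 and H2-DMb1 both at 0.29. Dendritic cell genes had a median of 0.03 over 10 members, or 0.04 without series 17, with Tcf4 at -0.13 and Clec9a at -0.10. T and NK cell genes had a median of 0.20 over 15, or 0.15 without series 17, with Cd3g of the T-cell receptor complex at 0.43 and the chemokine Ccl5 at 0.54.

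Neither granulocyte list held a passing gene. The median was 0.02 over 11 promyelocyte granule genes, or 0.10 without series 17, with Gfi1 and Ms4a3 at 0.21 and 0.14. It was 0.00 over 20 genes of maturing neutrophils, or 0.13 without series 17, with Cxcr2 at 0.22 and Itgam at 0.17. The median of 13 monocyte genes was 0.06, or 0.17 without series 17, with Cd14, the endotoxin co-receptor, at 0.88 ± 0.22 (adjusted p = 0.125; 0.55 without series 17) and Mpeg1 at 0.35. Of 22 erythroid genes 20 were positive and none passed, with a median of 0.19, or 0.22 without series 17. Slc4a1, the red cell anion exchanger, stood at 0.37 and Bpgm, which makes the regulator of haemoglobin oxygen affinity, at 0.45. Megakaryocyte genes had a median of -0.04 over 14, or -0.22 without series 17, with Thbs1 at 0.31. Rab27b stood at -0.26 but was detected in only 2 mice at 6 weeks and 1 at 12 weeks. Stem and progenitor genes had a median of -0.02 over 12, or -0.01 without series 17, with Gata2 at 0.38 and Mecom at 0.22.

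The value of the resident macrophage list changed sign with series 17. None of 15 passed and 14 were positive, with a median of 0.19, and without series 17 the median was -0.09. Their mean log2 level ran from 8.69 to 9.71 at 6 weeks, from 9.41 without series 17, and from 9.36 to 9.72 at 12 weeks. Cd163 and Hmox1, which take up haemoglobin and degrade haem, stood at 0.29 and 0.26 with all mice and at -0.06 and -0.08 without. Vsig4, a complement receptor of macrophages, kept its sign at 0.74 and 0.82 (adjusted p = 0.186 and 0.298), as did Siglec1, a sialic acid receptor, at 0.22 and 0.14. Vsig4 was detected in only 1 mouse at 6 weeks and 5 at 12 weeks.

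Pathway lists other than those above held no passing gene. Of 30 cell cycle genes 20 were negative, with a median of -0.07, or -0.13 without series 17, and Top2a and Kif11, which act in mitosis, at -0.22 and -0.20. Interferon response genes had a median of 0.07 over 26, or 0.18 without series 17, with Rsad2 at 0.53 and Gbp3 at 0.27. Heat shock and unfolded protein response genes had one of 0.11 over 16, or 0.05 without, with Ddit3 at 0.58 and Dnajb9 at 0.59. Clock genes had a median of -0.01 over 12, or 0.01 without, with Bhlhe40 and Per1 at 0.49 and 0.63. Glucocorticoid-induced genes had one of 0.15 over 12, or 0.05 without, with Cdkn1a and Tsc22d3 at 0.47 and 0.53. Oxidative phosphorylation genes had one of 0.02 over 20, or 0.05 without, with Uqcrc1 and Ndufa1 at -0.18 and 0.17.

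Imprinted and juvenile growth genes, many of which are shut off after birth as growth slows, had a median of -0.06 over 13, or -0.08 without series 17, with none passing, and 7 of the 13 were detected on no array. Igf2bp3, an RNA-binding protein of fetal tissue, came closest. Its log2 level ran from 6.04 to 8.19 at 6 weeks (median 6.85), detected in 8 of 9 mice, and from 5.04 to 6.86 at 12 weeks (median 5.52), detected in 1. The difference was -1.31 ± 0.27 (adjusted p = 0.0549), and -1.51 without series 17 (adjusted p = 0.0691). Cdkn1c, an inhibitor of the cell cycle expressed from the maternal copy, stood at -0.46 ± 0.11 (adjusted p = 0.113).

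**Figure D4:**
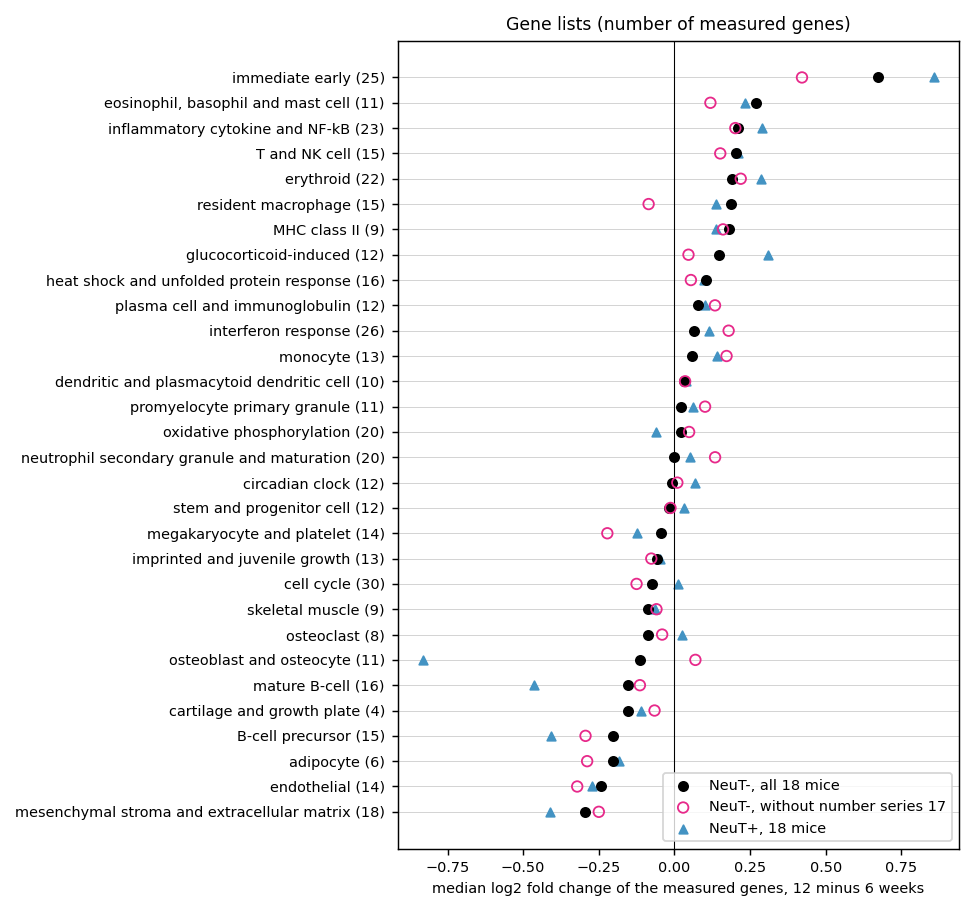
Median log2 fold change, 12 minus 6 weeks, of the measured genes of each of 30 lists, with the number of genes in parentheses, for all 18 NeuT- mice (black), for the 15 without series 17 (open pink) and for 18 NeuT+ mice (blue). Among the black points the immediate early list lies farthest right at 0.67 and the stromal list farthest left at -0.30. Among the open pink points the endothelial list lies farthest left at -0.32. The resident macrophage median changes sign without series 17.

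Taking away series 17 left the overall count close to what it was, 19 genes of 11309 (0.168%), with 9 higher (0.0796%) and 10 lower (0.0884%). Of the 20 genes called with all mice 14 still passed, and all 20 had the same sign. All 7 lower genes still passed, and 7 of the 13 higher genes did. Ifng, Klf4, G0s2, Gpr183, Chst1 and Gsto2 were the 6 that no longer passed. Within series 12 alone, 3 mice of each age, all 20 genes had the same sign. There 4 of them passed (Ighg1, Ccl2, Fcer1a and Tnc), among 34 genes in all (0.301%). Both of these sets are part of the mice that picked the 20 genes. The shared sign is therefore largely built in, and its share over all genes was not counted. Leaving out the mice labelled mild/moderate dys gave 28 genes, 9 of them among the 20. It also left 4 mice of 6 weeks, of which 3 were of series 17. That set ended the calls of 6 of the 7 lower genes, all but Nrep. With the number series as a fixed block, where the comparison of ages rests on 3 and 3 mice of series 12, 6 of the 7 lower calls also ended, all but Col4a1.

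The same ages in NeuT+ mice, which are other animals with no shared control, gave 924 genes (8.17% of 11309), and 576 (5.09%) without series 17. All 20 genes passed there with the same sign, and 17 of them without series 17. The spread between mice was smaller in NeuT+ marrow, with a median within-group SD over genes of 0.199 at both ages against 0.252 and 0.221 in NeuT- marrow. Across genes the changes of both genotypes had a Pearson correlation of 0.72 and a Spearman correlation of 0.59, as a description over 11309 genes that are not independent replicates. NeuT+ mice came from the same number series, so age and number series are tied in the same way in both genotypes.

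Whether the change with age differed between the genotypes was tested directly, and 0 of 11309 genes passed (limma interaction), with 334 at an unadjusted p under 0.05. Ighg1 had the smallest p of the 20 genes: it rose by 3.20 ± 0.18 in NeuT+ marrow, and the difference between the genotypes, NeuT- minus NeuT+, was -0.98 ± 0.35 (unadjusted p = 0.00801, adjusted p = 1.00). Egr2 rose by 2.12 ± 0.35 in NeuT+ marrow, and by 1.44 without series 17. Bgn had a difference of -1.12 there, and of -0.89 without series 17. Tnc and Col6a1 also passed in NeuT+ marrow, where neither was detected in any of the 9 mice of 12 weeks. Of all genes, 4.72% fell and 3.45% rose in NeuT+ marrow, or 2.16% and 2.94% without series 17. In the stromal list 9 of 18 genes fell there and 1 rose, and without series 17 these were 6 and 1. In the endothelial list 6 of 14 fell, or 3 without series 17, and in the immediate early list 13 of 25 rose with and without series 17. The medians of these 3 lists in NeuT+ marrow without series 17 were -0.27, -0.27 and 0.40. B-cell lists, with no passing gene in NeuT- marrow, also held passing genes in NeuT+ marrow. Of 16 mature B-cell genes 9 fell and 3 rose, or 5 and 2 without series 17. Of 15 B-cell precursor genes 7 fell and 0 rose, or 5 and 0 without series 17. The osteoblast list had a median of -0.83 in NeuT+ and -0.11 in NeuT- marrow, and of -0.33 and 0.07 without series 17, without a gene that passed the interaction.

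**Figure D5:**
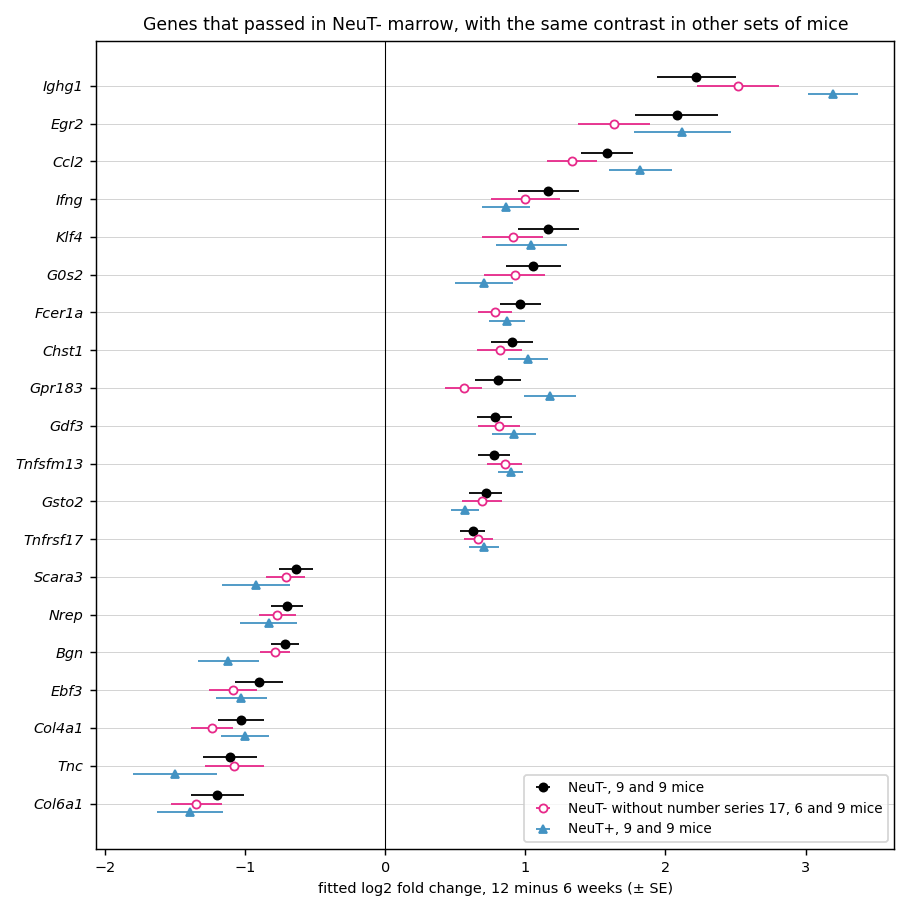
Fitted log2 fold changes, 12 minus 6 weeks, with standard errors for the 20 genes in all NeuT- mice (black), NeuT- mice without series 17 (open pink) and NeuT+ mice (blue). All 20 genes have the same sign in the 3 sets, and the fitted values of genes below detection, such as Tnfrsf17 and Ebf3, are not measured folds.

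The levels at 24 weeks, in 5 NeuT- mice, describe where the called genes stood in older animals. Because 4 of the 5 were of series 13, absent from both younger ages, age and number series cannot be told apart here. Replicate 1, the only mouse of series 12 at that age, correlated better with the 12-week mean (0.994) than with the other 24-week mice (0.984). Ighg1 lay between 10.89 and 11.83, Tnfsfm13 between 11.53 and 12.18 and Chst1 between 7.48 and 8.22, each above the highest mouse of 12 weeks. Fcer1a, at 10.74 to 10.95, stayed within the 12-week range. Egr2, at 7.34 to 9.63, and Ccl2, at 5.52 to 7.57, spread across the ranges of both younger ages. Bgn, at 7.10 to 7.86, and Col6a1, at 4.80 to 5.45 with 0 of 5 mice detected, stood at or under the levels of 12 weeks.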

How the data were processed

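Marrow RNA of 47 mice and 5 reference RNA samples was measured on 52 bead arrays. The deposited raw table gives the intensity of 45281 probes on a linear scale, exported from BeadStudio per the series' design text, with a detection p-value beside each intensity as deposited. The authors' deposited log2 values were normalized by robust spline with lumi, per that text and the submitters' processing notes; they served as an alternative. The design text names a TotalPrep kit and the labels' protocol a DASL assay, and which was run is not settled.

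Raw intensities were normalized with neqc of limma 3.58.1 (offset 16). A probe was kept if at least 1 array had its detection p below 0.01 (21592 were), and a gene was represented by whichever of its probes had the highest mean in mice, giving 11309 genes. Of all probes, 34885 had 1 symbol in the platform annotation, 18 had several and 10378 were not listed and stay unnamed. Ages were compared with lmFit and eBayes on the 18 arrays alone, with Benjamini-Hochberg adjustment. Where a probe was detected in no mouse of an age, only a bound is given: the brighter group's mean against the mean, per array of the dimmer group, of the array's lowest detected signal or, where higher, the signal of that probe. No fold is given where the bound is under 1 or both ages are below background. The number of arrays limits the precision. Each array is a separate mouse per the labels.

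Named genes were the called genes detected on at least 5 of 9 arrays of the brighter age, up to 12 in each direction, and from each list the passing members or the 2 with the smallest p. Chst1, Gsto2, Tnfrsf17, Scara3, Nrep and Ebf3, other members given beside these, and the 5 genes called without series 17 were named after their values were seen where that rule did not take them. The members and gene lists were chosen with earlier results of these data known. The 30 lists hold 579 genes, of which 442 were measured. The test was checked on simulated data drawn with independent mice and no effect of number series. That check therefore does not cover mice of 1 series being alike. With the number series as a random block, the fitted correlation within a series was 0.24. No table of sample columns was left unmatched. Promoter windows are from RefSeq (GRCm38.p6), and 5 called genes had none. Alternatives are given in the closing section.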

Additional observations from a re-analysis of the deposited data

Results flagged for a closer look

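Of 104 sets of 9 values tested for a mouse far from its group (Dixon's test), 6 had one, and chance gives about 1 in 20. For Tnfrsf17, replicate 3 of 12 weeks had a log2 level of 6.15, with the next at 5.76. Replicate 4 of 6 weeks had the lowest mean level of T and NK cell genes, at 8.33, with the next at 8.60, and of oxidative phosphorylation genes, at 12.11, with the next at 12.63. Replicate 2 of 12 weeks was highest for endothelial genes, at 7.93 against 7.58. Replicate 3 of 6 weeks was highest for heat shock genes, at 10.93 against 10.55, and replicate 8 of 6 weeks, of series 17, for promyelocyte granule genes, at 12.92 against 12.65.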

How the results depend on the processing

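In 31 alternatives, 18 of which left out 1 mouse, no result named here reversed its sign among the 20 genes. The count of 20 was 34 with number series 12 alone, of which 4 were among the 20, and 39 with median scaling, which included all 20. Leaving out 1 mouse at a time gave 15 to 29. With the number series as a fixed block, which rests on the 3 and 3 mice of series 12, 24 genes passed and 4 were shared, and as a random block 14 passed, all shared. Ighg1 and Ccl2 passed in all 31 alternatives and Fcer1a in all but the fixed block. Gpr183 lost its call in 17, Ebf3 in 15 of 30, Scara3 in 14 of 30, Ifng and Klf4 in 10 and G0s2 in 7, and the cause was not tested. Leaving out a single mouse ended calls of these 6 genes and of no other among the 20. G0s2 was lost without 6-week replicate 7 or 12-week replicate 6 (adjusted p up to 0.0529), Klf4 without 6-week replicate 1 or 7 or 12-week replicate 8 (up to 0.0556), and Ifng without 6-week replicate 1, 2 or 7 or 12-week replicate 3, 6 or 7 (up to 0.0605). Scara3 was lost without 6-week replicate 2, 5 or 7 or 12-week replicate 3, 4, 6 or 7 (up to 0.0779), and Ebf3 without 6-week replicate 2 or 7 or any of 12-week replicates 3 to 8 (up to 0.0769). Gpr183 was lost in 12 of 18 cases (up to 0.112). In NeuT+ marrow the count of 924 was 576 without series 17, 198 with the fixed block and 509 with the random block. The interaction gave 0 genes in each of its 7 alternatives, with 191 to 681 at an unadjusted p under 0.05. No paired analysis was possible because the labels give no replicate numbers and each mouse has 1 age. Genes near background, where neqc and the offset set the size of a difference, are limited by signal: 6 of the 20 were undetected at 1 age and 1 at both.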
